A study of Mus musculus with 17 samples.

Results

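WT1 binding in isolated glomeruli of BALB/cJ mice given adriamycin (ADR, the anthracycline doxorubicin) was set against that in glomeruli of BALB/cJ mice given PBS, site by site. All mice were 7 to 8 weeks old and wildtype per the labels, and each immunoprecipitation used an antibody to WT1 and the glomeruli of 2 kidneys. Each group had 4 libraries and 1 pooled peak list, and the labels give no day or dose for the ADR glomeruli. The members were all peaks of the ADR and PBS glomerular lists, 16634 and 29082 peaks, or 45716 of the 107761 peaks in the 5 lists of the series. Site-by-site values rest on 13118 matched pairs, in which 1 ADR peak and 1 PBS peak overlapped each other by at least 1 bp and overlapped no further peak of these lists. As an independent readout, the pairs were looked up in the lists of podocytes purified from mT/mG-Nphs2cre reporter mice, whose Cre is driven by the podocin promoter. These lists came from 2 libraries at day 9 after ADR, 2 at day 14 and 3 with PBS. Expression was not measured, so that the tissue labels were not checked against markers, and sites are named by the mm9 position of their ADR peak.

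WT1 is a zinc-finger transcription factor that is made in the adult glomerulus chiefly by podocytes, the epithelial cells whose interlocking foot processes form the slit diaphragm of the kidney filter. It binds promoters and distal enhancers of podocyte genes and is required to keep podocytes differentiated. Adriamycin damages podocytes in susceptible strains such as BALB/c and is a standard model of proteinuric disease with glomerulosclerosis. Whole glomeruli also hold mesangial and endothelial cells, so that fewer podocytes and less WT1 bound per podocyte cannot be told apart in these lists.

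Chromatin immunoprecipitation sequencing gives each peak a height at its summit, the position where most fragments overlap. The deposited fold enrichment of a peak divides this height by a local background, and both parts were separated here from the fold enrichment and the −log10 p of the peak. In all 5 lists, 100% of peaks gave a whole number of reads at the summit within 0.01 read, and 1.92% of ADR and 0.743% of PBS peaks allowed more than 1 such number. The ADR list was the shallower, with 17.9 immunoprecipitated reads per kb of the caller's genome in ADR and 31.1 in PBS glomeruli. The genome-wide background height was 3.16 reads in ADR and 5.67 reads in PBS glomeruli, a ratio of 0.558 by which read ratios between the lists were scaled. Peaks had 27 to 328 reads in ADR and 32 to 364 reads in PBS glomeruli. The PBS maximum equals 1 read per position and strand over the PBS fragment length of 182 bp, and 216 PBS peaks but 0 ADR peaks lay within 95% of that limit. Neither list can be split into its libraries, so that no difference below has a replicate check or a p-value, and all intervals are 95% intervals that cover counting error only.

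Nearly all overlaps were simple. The pairs took in 95.4% (interval 95.1 to 95.8) of the 13744 ADR peaks that overlapped a PBS peak and 96.9% (96.6 to 97.2) of the 13536 PBS peaks that overlapped an ADR peak. In 253 further places 2 ADR peaks lay under 1 PBS peak, and in 68 places 1 ADR peak spanned 2 PBS peaks. The 253 divided sites were broad, with a median PBS width of 926 bp. Their 2 ADR summits were a median of 486 bp apart, with 76 reads at the stronger and 46 at the weaker, against 169 reads at the PBS summit. The PBS summit was nearer to the stronger ADR summit at 213 of them (84.2%, 79.2 to 88.2), so that the leading summit was mostly kept.

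Whether a site was found in the other list followed its reads closely. Among PBS peaks, the share with an ADR peak grew at every step from 11.3% (10.2 to 12.5) in the lowest decile by reads to 87.1% (85.8 to 88.3) in the highest. Ranked by fold enrichment the same shares were 34.0% (32.3 to 35.8) in the lowest decile, 28.7% (27.1 to 30.4) in the next and 78.3% (76.7 to 79.7) in the highest, so that the order broke at the low end. ADR peaks behaved alike, with a PBS peak at 59.3% (57.0 to 61.5) of the lowest and 98.5% (97.8 to 99.0) of the highest decile by reads. Unmatched peaks were the lower ones in both lists, with a median of 45 reads against 64 for matched peaks in ADR and 82 against 136 in PBS glomeruli. After scaling by 0.558, 14620 of 15546 unmatched PBS peaks (94.0%) had at least 27 reads, the lowest ADR height, and 4580 (29.5%) had at least 60 reads, the median ADR height. How many would have been called at the ADR depth therefore depends on the height taken as the bound. The part of the local background was not tested.

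**Figure D1:**
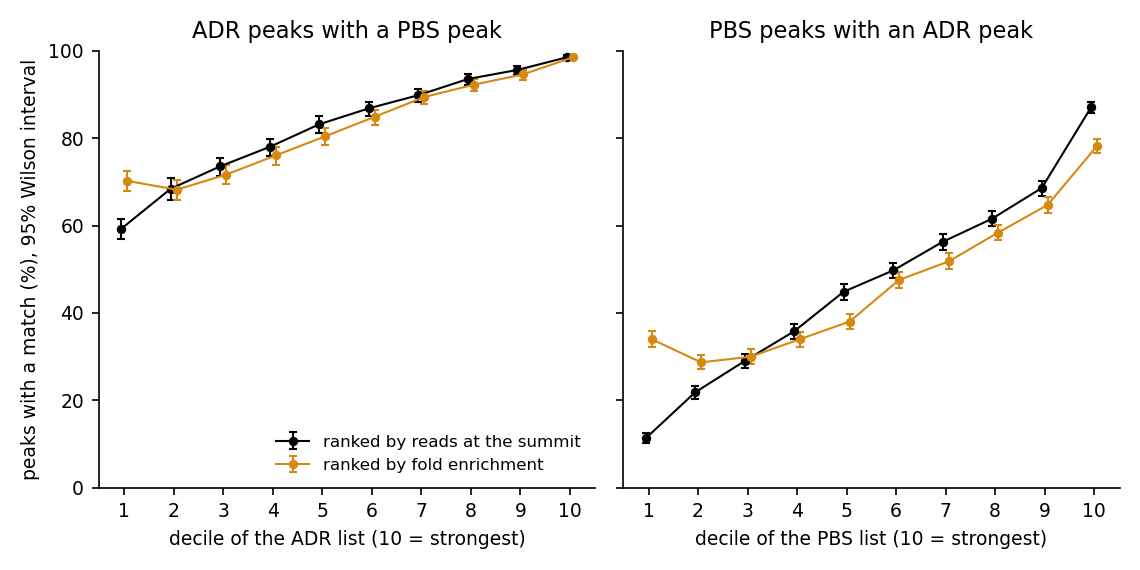
Share of ADR peaks that overlap a PBS peak (left) and of PBS peaks that overlap an ADR peak (right), by deciles of each list ranked by reads at the summit (black) or fold enrichment (orange), with 95% Wilson intervals. By reads the PBS share climbs from 11.3% to 87.1% without a break, whereas by fold enrichment the lowest decile stands above the next.

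At the matched pairs ADR glomeruli had somewhat fewer reads than the background ratio alone would give. The median depth-scaled ratio, ADR reads over PBS reads divided by 0.558, was 0.919, or −0.12 on the log2 scale (−0.13 to −0.11). A ratio of at least 2 was seen at 375 pairs (2.86%) and a ratio of 0.5 or less at 1059 pairs (8.07%). When the ratio was centred on the median of the pairs these counts were 528 and 791, so that the excess of low ratios depends in part on the scaling. The exact binomial interval of the ratio lay above 1 at 1937 pairs (14.8%) and below 1 at 3549 pairs (27.1%). Set against the median of the pairs the counts were nearly balanced, with 2612 intervals above it and 2736 below. A pair needs a called peak in each list, which shapes these counts. In the decile of pairs with fewest PBS reads, 33.6% of intervals lay above 1 and 0 below. The scaling was taken as known, and how many sites differ beyond counting error was not tested. These intervals compare the pooled reads of the lists and do not hold the spread between mice.

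Sites that were strong with PBS had the lower and the more scattered ADR signal relative to PBS. The median depth-scaled ratio was 1.27 in decile 1 of the pairs by PBS reads, 0.860 in decile 5, 0.745 in decile 9 and 0.811 in decile 10. The middle 50% of ratios ran from 0.717 to 1.05 in decile 5 and from 0.537 to 1.11 in decile 10. A ratio of 0.5 or less was found at 24.2% of pairs in decile 9 and 20.6% in decile 10, against 1.61% in decile 5. Weak PBS sites can enter a pair only if the ADR height also passes the caller, and decile 1 had 0 ratios of 0.5 or less and 12.9% of at least 2. This cutoff also narrows the spread at weak sites. PBS reads both set the deciles and divide the ratio, so that part of the fall with PBS reads is built in. How much of the trend and of the spread goes beyond this was not tested.

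**Figure D2:**
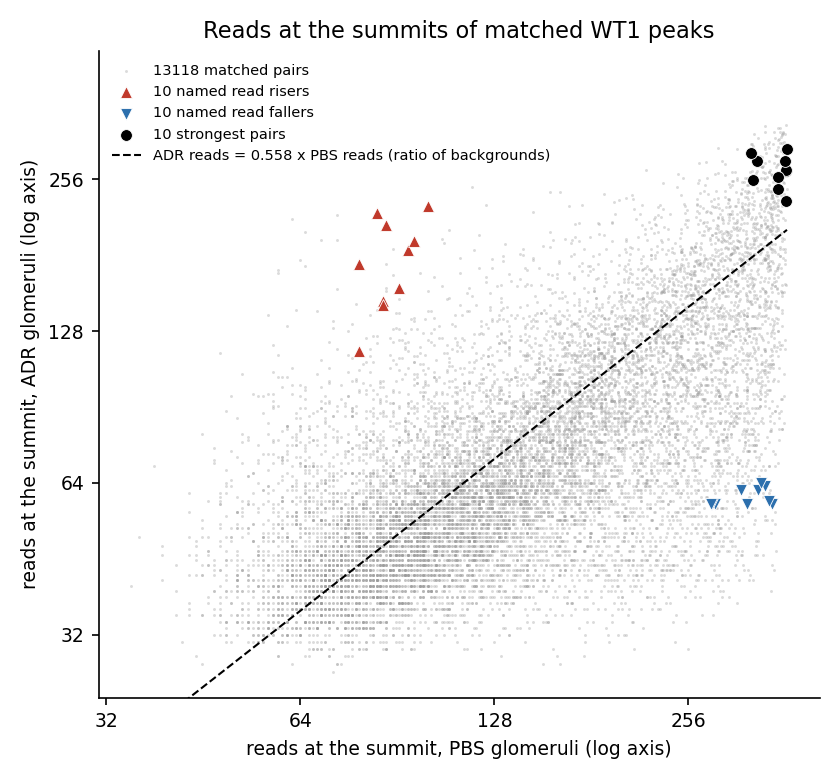
Reads at the summit in ADR glomeruli (vertical, log axis) and PBS glomeruli (horizontal, log axis) for 13118 matched pairs in grey, with the 10 named read risers (red), the 10 named read fallers (blue) and the 10 strongest pairs (black). The dashed line marks 0.558 ADR reads per PBS read, and the cloud spreads most widely below it at high PBS reads.

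The 10 strongest pairs, chosen for the highest fold-enrichment rank in both lists, had 232 to 294 reads in ADR and 320 to 364 reads in PBS glomeruli. All 10 were found in every podocyte list. Over all pairs the shares were 81.7% with PBS, 87.3% at day 9 and 35.1% at day 14. In the decile of PBS peaks with most reads, those with a depth-scaled ratio of at least 1 had shares of 99.5%, 99.6% and 91.9%. At chr1:174366835-174367345 there were 266 reads in ADR and 363 in PBS glomeruli, with podocyte heights of 371 reads at day 9, 157 at day 14 and 395 with PBS. At chr5:100920526-100921119 there were 288 reads in ADR and 320 in PBS glomeruli, a depth-scaled ratio of 1.61 (1.37 to 1.90). Depth-scaled ratios of the 10 lay between 1.15 and 1.61, with 9 intervals above 1. The choice required a high ADR rank as well, so that high ratios among strong PBS sites follow in part from it. The PBS heights of these sites lie near the limit of 364 reads, which was not reached in ADR glomeruli, and the part of that limit in these ratios was not tested.

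Below the strongest sites, the podocyte heights of a site went with its fate in ADR glomeruli, a split made after the values were seen. Of the decile of PBS peaks with most reads, leaving out divided sites, 374 had no ADR peak, 556 had a ratio of 0.5 or less, 1137 a ratio between 0.5 and 1 and 749 a ratio of at least 1. Glomerular PBS heights differed little across these classes, with medians of 269.5, 286, 290 and 299 reads in that order. Podocyte PBS heights differed more, with medians of 115, 140, 164 and 209 reads in the same order, so that sites that were low or missing in ADR glomeruli were the lower ones in uninjured podocytes as well. Day 9 podocyte medians were 107, 146, 180 and 210 reads. A day 14 podocyte peak was present at 61.2% (56.2 to 66.0), 78.6% (75.0 to 81.8), 85.1% (83.0 to 87.1) and 91.9% (89.7 to 93.6) of the classes. The same order of podocyte PBS heights held in decile 9, with medians of 70, 82, 100 and 115.5 reads at glomerular PBS medians of 200.5 to 209 reads. Day 14 presence did not keep the order there, with shares of 38.5%, 51.5%, 49.6% and 63.0%, nor in decile 8, with 22.4%, 37.2%, 29.1% and 44.8%.

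Fold enrichment was then ranked within each list among the pairs, from percentile 0 to 100 for the strongest, and the shift was taken as ADR minus PBS percentile. Ranks were loosely kept, with a Spearman correlation across pairs of 0.508, given as a description over 13118 sites that share libraries. A rise of at least 25 points was seen at 2314 pairs (17.6%) and a fall of at least 25 points at 2343 pairs (17.9%). The threshold cut through a continuous distribution, with the nearest values at 25 and 24.99 points for rises and −25.01 and −24.98 points for falls. Ranked in the whole lists, which differ in length, 1683 pairs rose and 3050 fell.

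Both the reads and the background moved with these shifts. Across pairs the fold shift had a Spearman correlation of 0.687 with the read part of the fold change and 0.588 with its background part. Fold enrichment is built from both parts and the classes were cut on it. These correlations and the class differences below therefore follow in part from the definition and only describe the size of each part. Reads were a median of 79 in ADR and 107 in PBS glomeruli at rising pairs, and 53 in ADR and 177 in PBS at falling pairs. Pairs that rose by fold enrichment had a median background of 1 in ADR and 3 in PBS glomeruli, and pairs that fell had 1.24 in ADR and 1.64 in PBS glomeruli, on the scale of the control reads. A PBS background at least 2 times the ADR background was found at 76.7% of rising and 13.4% of falling pairs, against 42.5% of all pairs. These values are not scaled between the lists, which had 4.32 control reads per kb in ADR and 6.34 in PBS. The genome-wide value was 0.764 in ADR and 1.15 in PBS glomeruli, so that PBS backgrounds start higher at any site. Backgrounds of the lists were weakly related at the same site, with a Spearman correlation of 0.144 over the pairs. They rest on few control reads, since 38.5% of ADR and 35.1% of PBS peaks had a background of a whole number of control reads. Of the 2314 rising pairs 210 had a lower percentile by reads, and of the 2343 falling pairs 286 had a higher one.

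**Figure D3:**
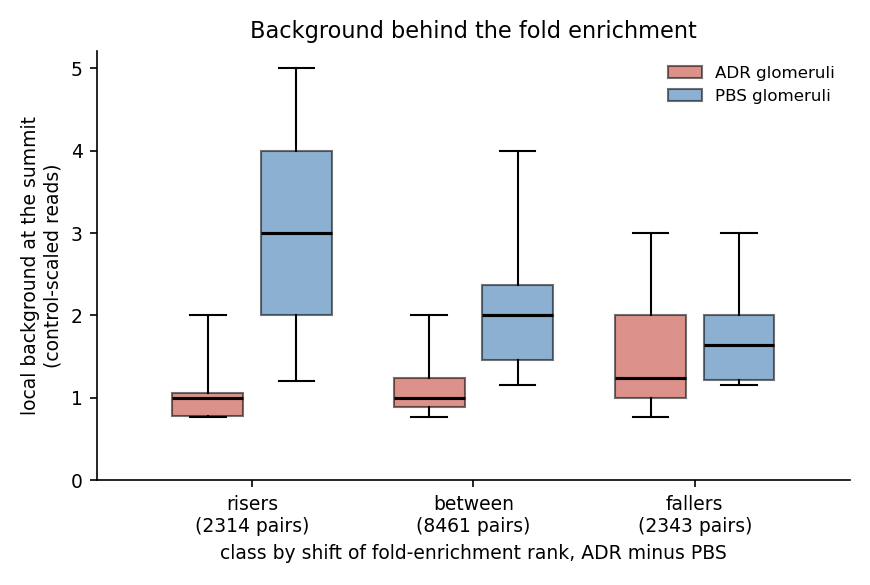
Local background that divides the summit height, in control-scaled reads, for pairs whose fold-enrichment rank rose by at least 25 points, lay between or fell by at least 25 points, in ADR (red) and PBS (blue) glomeruli. Boxes give quartiles with the median and whiskers the 5th to 95th percentile; the rising pairs have a median of 1 in ADR and 3 in PBS glomeruli.

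The 12 largest rises by fold enrichment among 5668 pairs whose ADR and PBS peak each reached a −log10 q of 10, with summits within 200 bp, had backgrounds of 0.764 to 1.77 in ADR and 3 to 6 in PBS glomeruli. The PBS background was the higher at all 12, as at most pairs, since it was at or below the ADR background at 10.8% of all pairs. At chr10:12810288-12810628 the fold enrichment was 16.2 in ADR and 4.62 in PBS glomeruli, a rise of 80.9 points, while there were 134 reads in ADR and 154 in PBS glomeruli. At chr17:37067135-37067623 fold enrichment was 17.9 in ADR and 5.06 in PBS glomeruli with 144 reads in each. By reads 8 of the 12 still rose by at least 25 points, and 9 had a depth-scaled interval above 1. Fold enrichment contains the reads, so that both counts follow in part from the choice of the 12. The clearest of them by reads was chr2:167590657-167591213, with 185 reads in ADR and 119 in PBS glomeruli, a depth-scaled ratio of 2.79 (2.20 to 3.54). It had a day 9 podocyte peak of 120 reads and no PBS podocyte peak.

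The 12 largest falls all had the higher background in ADR glomeruli, 3 to 5 in ADR and 1.15 to 3 in PBS. At chr9:77393851-77394189 the fold enrichment was 5.76 in ADR and 25.8 in PBS glomeruli, a fall of 74.1 points, with 115 reads in ADR and 276 in PBS. By reads that site fell by 5.69 points. By reads 1 of the 12 moved by 25 points or more, chr3:98143789-98144118 with 125 reads in ADR and 145 in PBS glomeruli, and it rose by 31.6. Falls in depth-scaled reads were nevertheless present, with 9 of 12 intervals below 1, for example 0.534 (0.421 to 0.673) at chr14:73847892-73848189. This count too follows in part from the choice by fold enrichment.

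Ranking by reads at the summit leaves out the division by the local background, though background reads stay in the height. It was used for most of what follows. Ranks were better kept, with a Spearman correlation of 0.649 across pairs, and 1587 pairs (12.1%) rose and 1682 (12.8%) fell by at least 25 points. Of the read risers 1064 were also risers by fold enrichment, 67.0% of read risers and 46.0% of fold risers. The corresponding overlap of fallers was 1242, or 73.8% of read fallers and 53.0% of fold fallers. Read risers had a median of 83 reads in ADR and 90 in PBS glomeruli, a depth-scaled median of 1.62. Read fallers had a median of 48 reads in ADR and 202.5 in PBS glomeruli, a depth-scaled median of 0.467. The median ADR to PBS width ratio was 1.16 at read risers and 0.539 at read fallers. Width grew with reads in both lists, so that this follows at least in part from the choice by reads. Widths of these classes were not compared at like reads.

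The sites with the largest rise by reads, chosen from the same 5668 pairs after the values were seen, had 117 to 226 reads in ADR and 79 to 101 reads in PBS glomeruli. The 10 depth-scaled ratios lay between 2.65 and 4.67, each with an interval above 1. The same reads made the choice, so that these ratios and intervals follow from it and only describe the sites. At chr6:29220916-29221402 there were 219 reads in ADR and 84 in PBS glomeruli, a ratio of 4.67 (3.62 to 6.08). The same site had 108 reads in day 9, 34 in day 14 and 45 in PBS podocytes. The site at chr15:33836849-33837280 had 208 reads in ADR and 87 in PBS glomeruli, and 238 in day 9, 83 in day 14 and 25 in PBS podocytes. Its depth-scaled podocyte ratio of day 9 to PBS was 12.8, so that both preparations showed the higher signal after ADR there.

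Higher reads after ADR in both preparations were found at several of the 10. At chr10:24115831-24116341 there were 193 reads in ADR and 96 in PBS glomeruli, and 199 in day 9, 50 in day 14 and 46 in PBS podocytes. At chr13:5614059-5614466 reads were 147 in ADR and 86 in PBS glomeruli, and 110 in day 9, 24 in day 14 and 23 in PBS podocytes. The site at chr1:193718227-193718671, with 174 reads in ADR and 79 in PBS glomeruli, had podocyte peaks at day 9 (76 reads) and day 14 (63 reads) and none with PBS. Of the 10, 6 had podocyte peaks with PBS and 8 at day 9, and 5 of the 6 that could be compared had at least 2 times the depth-scaled PBS reads at day 9. Over all pairs 81.7% had a podocyte peak with PBS, 87.3% had one at day 9, and 13.3% of those with both had such a ratio, so that presence at the 10 was not above that of all pairs. Among all read risers with both peaks the share with such a ratio was 27.1%. The 6 compared had 23 to 52 PBS podocyte reads, beside a median of 86 over all pairs with both. A share at like podocyte reads was not taken. The exceptions were plain as well. At chr14:69707034-69707597, with 226 reads in ADR and 101 in PBS glomeruli, the podocyte day 9 to PBS ratio was 1.00, and the sites at chr16:8667315-8667714 and chr3:84575896-84576297 had no podocyte peak in any list.

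The sites with the largest fall by reads had 58 to 64 reads in ADR and 277 to 345 reads in PBS glomeruli. They were chosen by these reads, so that their low ratios follow from the choice. At chr5:18677153-18677394 there were 58 reads in ADR and 345 in PBS glomeruli, a ratio of 0.301 (0.224 to 0.399), in a peak of 242 bp in ADR and 543 bp in PBS. The site at chr17:68372188-68372452 had 59 reads in ADR and 341 in PBS glomeruli, and that at chr10:6590228-6590547 had 58 in ADR and 316 in PBS. All 10 were found in every podocyte list. So were most of the 606 read fallers in the quintile of pairs with most PBS reads, at 98.7% with PBS, 99.3% at day 9 and 77.9% (74.4 to 81.0) at day 14. The 2010 pairs between the thresholds in that quintile had shares of 99.2%, 99.45% and 87.0% (85.5 to 88.4). A day 14 peak was thus less frequent at the fallers than at pairs between with like PBS reads. Depth-scaled day 9 ratios of the 10 to PBS podocytes were 1.08 to 2.09, beside a median of 1.26 over all pairs with both peaks. At chr5:18677153-18677394 the podocyte heights were 244 reads at day 9, 92 at day 14 and 218 with PBS. The falls in ADR glomeruli were thus not matched by day 9 podocytes, whereas day 14 podocytes had depth-scaled ratios to PBS of 0.295 to 0.482 at these sites, beside a median of 0.456 over all pairs with both podocyte peaks.

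Podocyte peaks were less frequent at read risers as a whole, at 82.9% against 86.6% of the pairs between at day 9, 21.6% against 34.7% at day 14 and 66.2% against 82.3% with PBS. Read risers were also lower in PBS glomeruli, with a median of 90 reads against 138. Podocyte lists took no part in choosing the pairs, and the classes were therefore compared at like PBS glomerular reads. In the quintile of pairs with fewest PBS reads, 718 read risers had a median of 66 reads in ADR and 70 in PBS glomeruli, and 1871 pairs between the thresholds had 42 in ADR and 73 in PBS. A day 9 podocyte peak was present at 75.8% (72.5 to 78.8) of these risers and 60.8% (58.5 to 63.0) of the pairs between. A day 14 peak was present at 15.0% (12.6 to 17.8) and 4.81% (3.93 to 5.88). A PBS podocyte peak was present at 53.1% (49.4 to 56.7) and 53.0% (50.8 to 55.3), so that the intervals were apart in both ADR podocyte lists and overlapped in the PBS list. In the next quintile the shares at risers and between were 84.7% and 80.3% at day 9, 18.5% and 10.2% at day 14 and 70.1% and 72.7% with PBS. In the middle quintile they were 93.5% and 93.0% at day 9, where nearly all sites had a peak, and 33.6% and 21.5% at day 14.

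Where a pair had a peak in the podocyte lists compared, the height of that peak was also set against PBS podocytes. Both days share the PBS podocyte list, so that their ratios are not independent. At day 9 the median depth-scaled ratio was 1.31 (1.27 to 1.37) at 941 read risers, 1.23 (1.22 to 1.24) between and 1.38 (1.36 to 1.41) at 1477 read fallers, so that the medians did not follow the glomerular order. Ratios of at least 2 were more frequent at read risers, at 27.1% (24.4 to 30.0), than between, at 11.1% (10.4 to 11.8), or at read fallers, at 15.2% (13.5 to 17.2). Read risers were lower in PBS podocytes to begin with, with a median of 56 reads against 92 between and 87 at fallers. Within quintiles of PBS podocyte reads, the day 9 shift of read rank was lower at read risers than at read fallers in each of the 5, for example 8.15 and 13.7 points in the lowest quintile and −12.0 and 3.24 points in the middle quintile.

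At day 14 the order of podocyte heights followed that of the glomeruli. The median depth-scaled ratio to PBS podocytes was 0.711 (0.664 to 0.770) at 300 read risers, 0.453 (0.448 to 0.458) between and 0.422 (0.411 to 0.435) at 823 read fallers. A ratio of 0.5 or less was found at 22.3% (18.0 to 27.4) of read risers, 64.5% (62.8 to 66.1) between and 69.9% (66.7 to 72.9) at read fallers. Read risers were again lower in PBS podocytes, with a median of 57 reads against 144 between and 111 at fallers. The lowest day 14 peak had 16 reads, so that low ratios were harder to detect at risers. These medians and shares are therefore not like for like. Within quintiles of PBS podocyte reads the day 14 shift was higher at risers than at fallers in each of the 5, for example 13.5 and −5.08 points in quintile 2 with 64 and 231 pairs. Quintiles 4 and 5 held 6 and 9 risers. Only pairs with a day 14 and a PBS podocyte peak enter these medians, and a day 14 peak was found at 21.6% of read risers and 50.2% of read fallers.

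**Figure D4:**
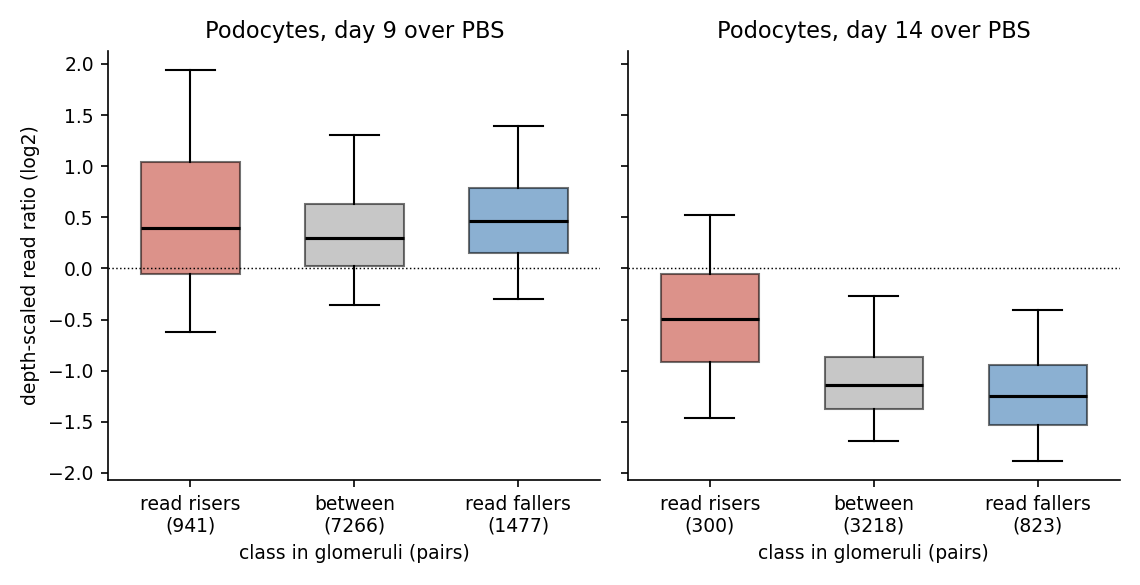
Depth-scaled read ratio (log2) of day 9 over PBS podocytes (left) and day 14 over PBS podocytes (right) at pairs that were read risers, between or read fallers in ADR against PBS glomeruli, with the number of pairs in brackets. Boxes give quartiles and median and whiskers the 5th to 95th percentile; at day 14 the risers have a median ratio of 0.711 and the fallers 0.422, while at day 9 the medians are 1.31 and 1.38.

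Peaks were narrower in ADR glomeruli. Widths had a median of 322 bp in ADR and 421 bp in PBS, and the median width ratio was 0.810 (0.805 to 0.816). The ADR peak was the wider at 3084 pairs (23.5%). Width grew with reads in both lists, with Spearman correlations across pairs of 0.664 in ADR and 0.663 in PBS. In 516 pairs whose unscaled reads were within 10% of each other the ratio was 1.16 (1.13 to 1.18), and in 2800 pairs whose depth-scaled reads were within 10% it was 0.852 (0.843 to 0.859). The difference in width was thus reversed where the heights in reads were equal, and its direction depends on which heights are called equal.

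**Figure D5:**
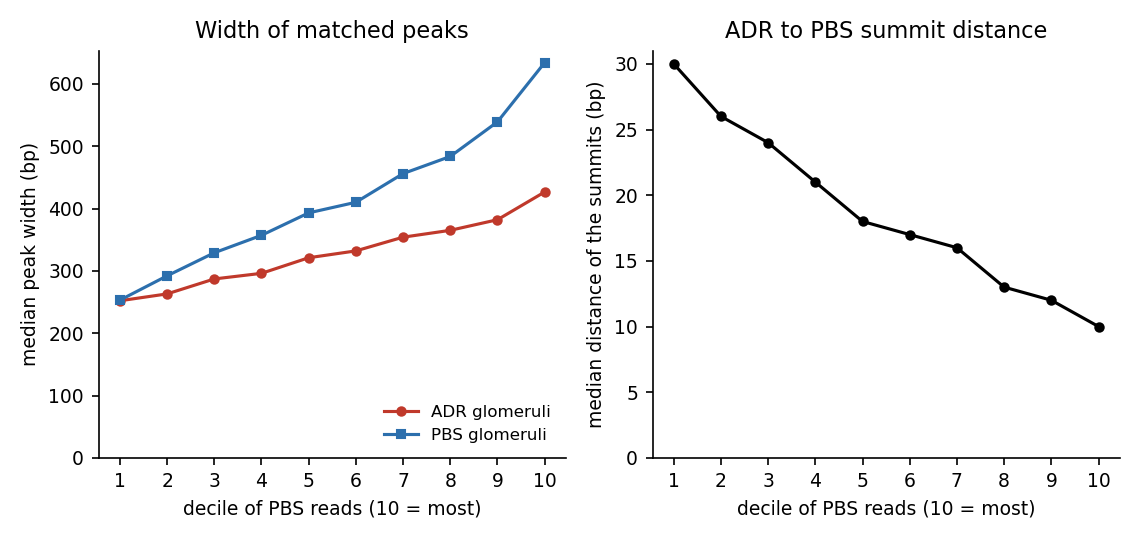
Median peak width in ADR (red) and PBS (blue) glomeruli (left) and median distance between the ADR and PBS summit of a pair (right), by deciles of pairs ranked by PBS reads. Widths start at 252 bp in ADR and 253 bp in PBS and part to 426.5 bp in ADR and 634 bp in PBS, while the summit distance shrinks from 30 to 10 bp.

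Some sites went against the general narrowing by far. At chr5:123093699-123094530 the ADR peak spanned 832 bp and the PBS peak 292 bp, with 120 reads in ADR and 103 in PBS glomeruli and a depth-scaled ratio of 2.09 (1.59 to 2.74). At chr9:44541950-44542968 the ADR peak spanned 1019 bp and the PBS peak 465 bp, with 210 reads in ADR and 185 in PBS. Podocyte heights there were 167 reads at day 9, 73 at day 14 and 78 with PBS, again higher at day 9 than with PBS. The site was number 4 by width ratio. Of the 6 highest width ratios, 4 could be compared in podocytes, and only this 1 had a depth-scaled day 9 ratio of at least 2. In the other direction, chr8:15046777-15047077 spanned 301 bp in ADR and 1411 bp in PBS, with 64 reads in ADR and 332 in PBS, and was also among the 10 largest read fallers.

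Summits stayed in place. The ADR and PBS summit were within 20 bp at 56.1% of pairs (55.2 to 56.9), within 50 bp at 84.0% (83.3 to 84.6) and within 200 bp at 97.4% (97.1 to 97.7), with a median distance of 17 bp and no lean to either side (median 0 bp, quartiles −18 and 17). Read fallers and read risers kept their summits as well as the rest, with 85.4% and 86.0% within 50 bp. Stronger sites were placed more tightly, with a median distance of 10 bp in the highest decile of PBS reads and 30 bp in the lowest. At 340 pairs (2.59%) the summits were over 200 bp apart, in peaks of median width 512 bp in ADR and 660.5 bp in PBS. PBS podocytes sided with the PBS glomerular summit at most of these, being nearer to the ADR summit at 95 of 266 (35.7%, 30.2 to 41.6). Day 9 podocytes did the same, nearer to the ADR summit at 98 of 281 (34.9%, 29.5 to 40.6), so that both podocyte lists were more often nearer to the PBS glomerular summit. The farthest were chr19:43598649-43599933, where the ADR minus PBS summit position was 948 bp, and chr19:47965719-47966789, where it was −829 bp.

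Neighbouring sites moved together to a small degree. The Spearman correlation of read-rank shifts between adjacent pairs was 0.187 at distances up to 2 kb, 0.215 at 2 to 10 kb, 0.161 at 10 to 50 kb, 0.050 at 50 to 200 kb and −0.011 at 200 to 1000 kb, over 1052, 1849, 4002, 3802 and 1863 neighbours that share libraries and local coverage. Among 1041 windows of 500 kb with at least 5 pairs, the highest median read shift was at chr5:118500001-119000000, with 54.7 points over 5 pairs, 4 of them upward. The window chr13:98000001-98500000, number 5 by median read shift, had 7 pairs, all upward by reads, with a median depth-scaled ratio of 1.47. A day 9 and a PBS podocyte peak were present at all 7, beside 87.3% and 81.7% of all pairs. The lowest median was at chr1:61500001-62000000, with −48.9 points over 5 pairs and 0 upward, and medians of 55 reads in ADR and 232 in PBS glomeruli. At chr8:90000001-90500000, number 2 from the lowest by median fold shift, all 9 pairs fell by fold enrichment and by reads, with a median depth-scaled ratio of 0.519. All 9 had a day 9 podocyte peak, beside 87.3% of all pairs.

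Chromosome X stood apart by fold enrichment but not by reads. Its 220 pairs had a median fold-rank shift of −4.88 points and 9.55% risers (6.33 to 14.2), against 1.15 points and 17.8% (17.1 to 18.4) on the autosomes. Fallers were not more frequent on X, at 15.5% (11.3 to 20.8) against 17.9% (17.25 to 18.6) on the autosomes. By reads the median shift was 0.919 points on X and 0.728 on the autosomes. The median background on X was the genome-wide value in each list, 0.764 in ADR and 1.15 in PBS, against 1 in ADR and 2 in PBS on the autosomes. Autosomes had medians from −1.24 to 3.62 points by fold enrichment and from −1.05 to 2.79 by reads.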

How the data were processed

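WT1 ChIP-seq of 4 ADR and 4 PBS glomerular libraries was used as deposited, 1 narrowPeak list per group. The submitters' processing notes name Bowtie 0.12.7, the mm9 build and MACS2. How duplicates, control, cutoff and pooling were handled is not given in the sources used here. Per the labels, each list belongs to all libraries of its group. The fold enrichment of a peak, a ratio, is the authors' value, as are its −log10 p and −log10 q. The score column deposited by the authors entered no result. The members and lists were chosen with earlier results of these data known.

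Peaks overlapping by at least 1 bp were linked, and groups of 1 ADR and 1 PBS peak were pairs. Reads n, background λ and scale s at a summit were solved from fold = (s·n + 1)/(λ + 1) and from p as the Poisson tail at λ, a form inferred from the values. The genome-wide λ/s gave the background height. Ranks were percentiles among the pairs. Named pairs reach a −log10 q of 10 in ADR and in PBS and, except for distant summits, summits within 200 bp. They were the 12 largest rises and falls of fold rank, the 10 strongest, the 6 highest and 6 lowest width ratios and the 6 farthest summits. The 5 highest and lowest windows of 500 kb were also taken. The text gives examples of these, picked after the values were seen and not always the leading ones. The 10 largest rises and falls by reads, the classes of strong PBS peaks and the scalings were added after the values were seen. Shares have Wilson intervals, medians order-statistic intervals, and read ratios exact binomial intervals. With 1 pooled list per group no test was run. No genome or annotation of mm9 was used here, so that genes, sequences, motifs and gene lists were not analysed. The code was tested on simulated lists. Computations ran in Python 3.11.15 with scipy 1.17.1, pandas 2.3.3 and numpy 2.4.6, and figures in matplotlib 3.10.9.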

Additional observations from a re-analysis of the deposited data

How the results depend on the processing

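Each group has 1 pooled list, so that no replicate could be left out. No paired analysis was possible because the replicate numbers of the libraries do not appear in the pooled lists. The alternative on genes near named pairs was not run, since no annotation of the files' build was used here. Matching by an overlap of 50% of the shorter peak, by summits within 200 bp or by mutual largest overlap kept all counts within 1.5 times, and of these only the summit rule moved a value beyond its interval, the share of summits within 50 bp to 86.2%. That rule leaves out pairs with distant summits, so that a rise of this share is built in. With peaks of −log10 q 10 or more on each side there were 5896 pairs, a width ratio of 0.840, 92.3% of summits within 50 bp, 1301 risers and 1224 fallers by fold enrichment, and 864 risers and 944 fallers by reads; fewer pairs enter there. Of the 24 pairs named for their fold rank, 8 kept a shift of at least 25 points by reads, 22 by −log10 p and 24 in the whole lists. By reads 3 falls were reversed, to 15.6 points at chr6:144729996-144730519, 31.6 at chr3:98143789-98144118 and 1.74 at chr12:80875954-80876228, where the ADR background was 4 to 5.

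The median day 9 podocyte shift was small and its sign was not stable. At risers and fallers by fold enrichment it was −0.547 and −0.537 points, 0.0465 and 0.0181 when the podocyte lists were ranked by −log10 p, and −1.36 at fallers with the stricter q. At read risers it was 0.299 points, 2.58 by podocyte fold enrichment and 5.36 with a threshold of 40 points. At read fallers it was 1.67 points and −0.687 by podocyte fold enrichment. The day 14 shift kept its direction. It was 9.29 points at read risers, 18.99 by podocyte fold enrichment, and −5.89 at read fallers, −4.02 by podocyte fold enrichment and −8.13 with a threshold of 40 points. The causes of these changes were not tested. The lowest height in the ADR list was 27 reads, so that low ratios at weak PBS sites were not detectable among the pairs. The part of the limit of 364 PBS reads in the ratios of strong sites was not tested.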
